A study of Mus musculus with 4 samples.

Results

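The D cyclins, their kinase partners CDK4 and CDK6, the inhibitors of these kinases and the retinoblastoma protein were followed at the RNA level in 4 subclones of 36-65, a mouse hybridoma (the antibody-secreting product of a B cell fused to a myeloma cell). The genes were taken by symbol: every probe set that the platform annotation assigns to Ccnd1, Ccnd2, Ccnd3, Cdk4, Cdk6, Cdkn1b, Cdkn2a, Cdkn2b, Cdkn2c or Rb1 was kept, which gave 26 of 45037 probe sets and 10 of 18193 genes. The high switching subclones H23 and H27 change their immunoglobulin isotype spontaneously at high frequency in culture, and the low switching subclones L25 and L27 do so at low frequency. All 4 were grown in medium with 10% fetal calf serum, and each was measured on 1 Affymetrix array of total RNA. A subclone is 1 clone, so a difference between classes cannot be told apart from differences that clones of a line acquire by chance, and nothing in the labels gives the density or growth phase of the cultures.

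D cyclins are made in response to growth signals and bind CDK4 or CDK6 in the G1 phase. The active kinases phosphorylate the retinoblastoma protein, which releases E2F transcription factors and lets the cell enter S phase. The INK4 inhibitors (p16 from Cdkn2a, p15 from Cdkn2b and p18 from Cdkn2c) bind CDK4 and CDK6 directly, while p27 from Cdkn1b binds cyclin-CDK complexes and is best known as an inhibitor of CDK2. In the B lineage cyclin D2 responds to antigen receptor signals, cyclin D3 serves germinal centre cells, and p18 takes part in the cell cycle arrest that goes with plasma cell differentiation.

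The median intensity of an array was 38.1 to 39.3, which is 5.25 to 5.30 on the log2 scale used below. Markers of antibody-secreting cells were bright, with 7 of 7 above the median probe set on every array, among them Jchain, which averaged 14.46 in H23 and H27 and 14.42 in L25 and L27. Of these 7, Xbp1 (log2 difference -0.71, adjusted p = 0.0461) and Tnfrsf17 (-0.71, 0.0454) were called lower in high switching subclones, and Prdm1 had a difference of 0.74 that did not pass (0.119). Of the 4 B cell markers, Cd79b was bright and called higher (0.77, 0.0238), Ms4a1 was bright and not called, and Pax5 and Cd79a lay near the median probe set. The part of these marker differences in the results below was not tested. The 5 proliferation markers, which include Mki67 and Top2a, had summed intensities of 25858 and 21365 in H23 and H27, against 27690 and 28687 in L25 and L27. None of the 5 passed the test, and their median log2 difference was -0.25; their part in the differences below was not tested. The 4 fibroblast markers had summed intensities of 120 to 127 in high and 103 to 113 in low switching subclones. Those of the 4 myeloid markers were 283 to 293 against 434 to 437. Of these myeloid markers, Itgam was called lower in high switching subclones (log2 difference -1.38). Lyz2, Csf1r and Cd14 had differences in the other direction (0.12, 0.28 and 0.20), none of them called, so the lower sum is that of Itgam and not of the class.

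Of the 26 probe sets, 1 was higher (Rb1) and 1 was lower (Ccnd2) in high switching subclones at a limma adjusted p under 0.05, where 1.5% of all probe sets were called higher and 2.1% lower. Among the 20 of these probe sets whose mean log2 intensity reached 7 the same 2 were called, where 7.21% of all such probe sets were called, so the count of calls is near the background. With 2 arrays a class, the smallest two-sided p of an exact permutation test is 0.333, and every call leans on limma's pooling of variance over the array. The values of both high switching subclones lay below those of both low switching subclones on 16 of the 26 probe sets, where 22.2% of all probe sets did so, and above them on 2, where 25.1% did so. These 16 are not independent, since 7 belong to Ccnd2, 3 to Ccnd1 and 3 to Cdk4. Bright probe sets lay below more often than above. Of the 14489 probe sets with a mean of at least 7, 5157 lay below and 4039 above. For the 20 such probe sets of these genes the counts were 14 and 2. With the brightest probe set standing for each gene, 4 of the 10 genes lay below, where 24.9% of all genes did so, and 2 above, where 26.5% did so. The median log2 difference was -0.19 over the 26 probe sets and 0.01 over all probe sets. On 12 of the 26 probe sets, subclones of the same class differed by more than the class means did.

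**Figure D1:**
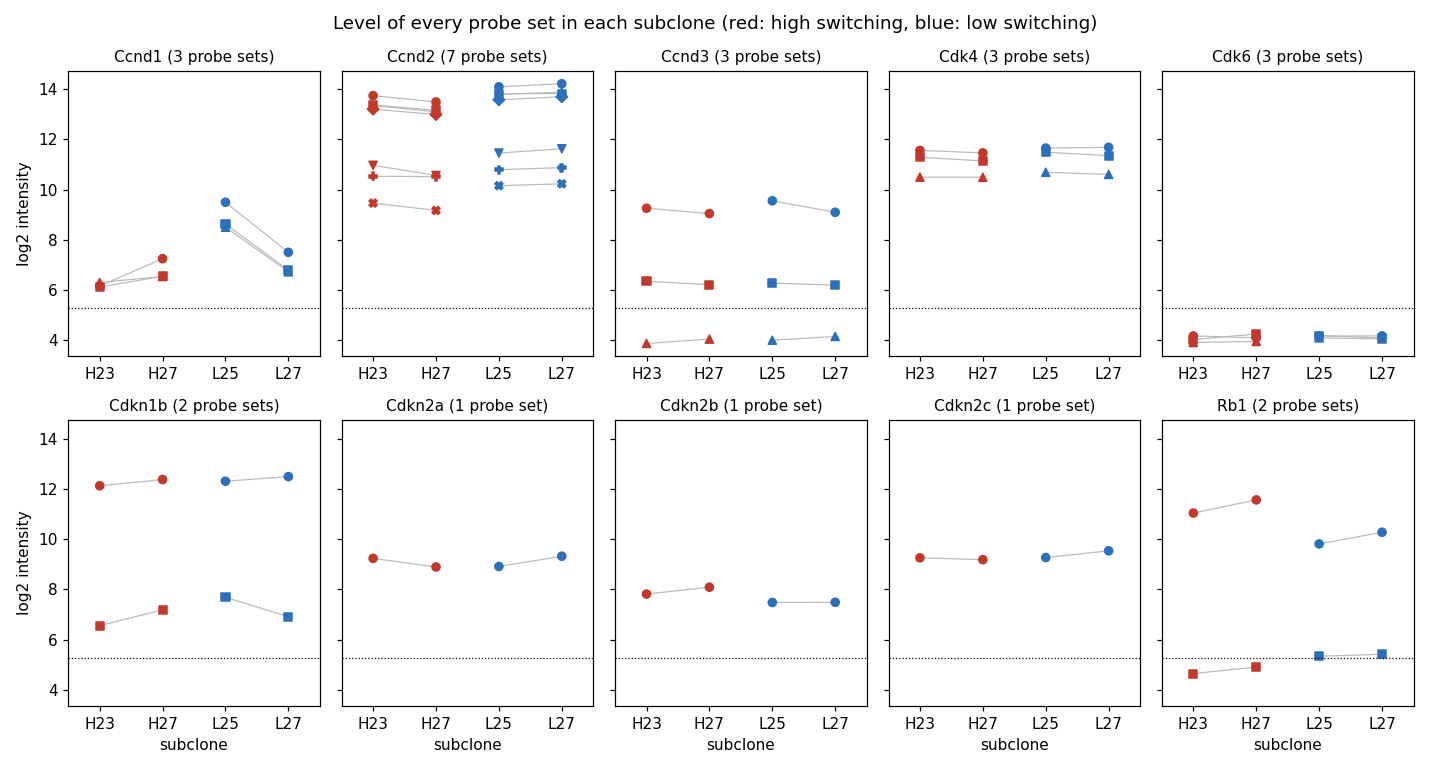
Log2 intensity of each probe set (symbols, one shape for each probe set of a gene) in the 4 subclones, with grey lines joining subclones of a class and a dotted line at the median probe set. Ccnd1 is brightest in L25, the 7 Ccnd2 probe sets are lower in H23 and H27, the 3 Cdk6 probe sets lie below the dotted line, and the brighter Rb1 probe set is higher in H23 and H27.

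Cyclin D2 gave the most even pattern among the D cyclins. The Ccnd2 probe set 1416123_at read 9.47 in H23 and 9.17 in H27, against 10.16 in L25 and 10.23 in L27 (log2 intensity). The 2 classes did not overlap, and the low switching subclones lay close together. The log2 difference was -0.88 ± 0.13 (SE, 95% interval -1.20 to -0.55, n = 2 each), a 1.83-fold lower level in high switching subclones, with a limma adjusted p of 0.0301. The other 6 Ccnd2 probe sets did not pass, with log2 differences from -0.78 to -0.31 and adjusted p-values from 0.0633 to 0.191, but on each of them both high switching subclones lay below both low switching ones. H27 read lower than H23 on all 7 probe sets, with H27 minus H23 between -0.41 and -0.01.

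The brightest Ccnd2 probe set, 1416122_at, had log2 intensities of 13.74 and 13.49 in H23 and H27, against 14.10 and 14.22 in L25 and L27. Its mean stood at percentile 99.5 of all probe sets, near the top of the range (15.2), where intensity may rise less than transcript. Its log2 difference was -0.54, against -0.88 on the dimmest Ccnd2 probe set, and the smallest difference of the 7 (-0.31) was on the next dimmest, 1416124_at. The cause of these unequal sizes was not tested. Averaged over its 7 probe sets, Ccnd2 averaged 11.97 ± 0.17 in high switching and 12.58 ± 0.07 in low switching subclones (SD, n = 2 each), with a difference of -0.60 ± 0.12 (SE). In that fit, with a single averaged value for each gene, Ccnd2 passed (limma adjusted p = 0.0424), where 5.87% of all genes were called. With a variance trend on intensity, 6 of the 7 probe sets were called lower, where 912 of all 45037 probe sets were. The 7 belong to 1 gene and are not independent.

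The call of 1416123_at ended without H27 (log2 difference -0.73, adjusted p = 0.0882), without L25 (-0.91, 0.132) and without L27 (-0.84, 0.118), and held without H23 (-1.02, 0.0494). It also ended with a block for the hybridization controls (adjusted p = 0.0963) and when the median of neighbouring genes was subtracted (-0.57, 0.0531). The block leaves fewer residual degrees of freedom by construction. With it, calls over all probe sets fell from 674 to 58 higher and from 944 to 94 lower. Over the alternatives the difference lay between -1.02 and -0.57. The genes closest to this probe set over the 4 arrays, by the distance between centred log2 values among 13326 named probe sets, were Mgat4a, Gid4 and Stk38l (distances 0.0462, 0.0463 and 0.0483). Their log2 differences were -0.86, -0.89 and -0.84. These had to lie near that of 1416123_at, since the genes were picked by this distance on the same arrays.

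Cyclin D1 separated 1 subclone from the other 3. Ccnd1 1417420_at read 6.16 in H23 and 7.25 in H27, against 9.50 in L25 and 7.50 in L27 (log2 intensity). In linear intensity these were 71.5 and 152 in high switching subclones, against 724 in L25 and 182 in L27, so L25 stood well above the others while L27 lay near H27.
Both high switching subclones lay below both low switching ones on all 3 Ccnd1 probe sets, yet L27 minus L25 was -1.99, -1.83 and -1.78 on the log2 scale, a larger gap than between the classes. The log2 differences between classes were -1.80, -1.38 and -1.19, the first with an SE of 0.66 and a 95% interval from -3.40 to -0.19, and none passed (adjusted p-values from 0.218 to 0.300). Without L25 the 3 differences were -0.80, -0.46 and -0.31, and without L27 they were -2.79, -2.29 and -2.08, with 2 of the 3 then past the threshold. The high minus low contrast in Ccnd1 therefore rested largely on L25.

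Cyclin D3 showed no difference that could be measured here. Ccnd3 1415907_at read 9.26 and 9.05 in H23 and H27, against 9.56 and 9.10 in L25 and L27, with a log2 difference of -0.17 (95% interval -0.61 to 0.26). The classes overlapped on all 3 Ccnd3 probe sets, and the other 2 gave 0.04 and -0.12, the last of them on a probe set below the median of every array.

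**Figure D2:**
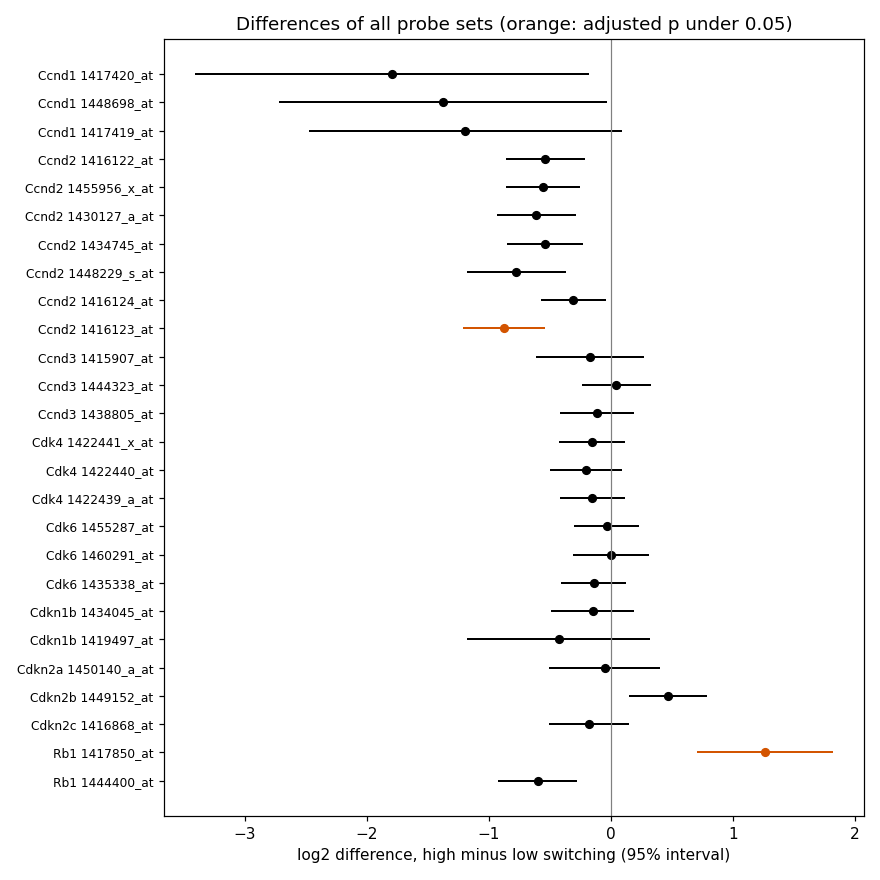
Log2 difference (high minus low switching) with its 95% interval for the 26 probe sets, with the 2 probe sets past the adjusted threshold in orange. The 7 Ccnd2 intervals lie below 0, those of Ccnd1 are wide, and those of Ccnd3, Cdk4, Cdk6, Cdkn1b, Cdkn2a and Cdkn2c cross 0.

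Of the kinases, Cdk4 was bright and Cdk6 was near the bottom of the range. Cdk4 1422441_x_at read 11.56 and 11.46 in H23 and H27, against 11.66 and 11.69 in L25 and L27 (log2 intensity). The 3 Cdk4 probe sets gave small differences in the same direction (-0.16, -0.21 and -0.15), with both high switching subclones below both low switching ones on each. None passed (adjusted p-values from 0.436 to 0.529), and the 95% intervals ran from -0.49 to 0.10, so a fall of more than 0.49 lies outside all 3.
The 3 Cdk6 probe sets had log2 intensities between 3.91 and 4.25 in every subclone, below the median probe set of each array. Their log2 differences were -0.04, 0.00 and -0.14, at a level where the array need not track the amount of transcript.

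The Cdk4 start region is shown because it carries a repeated E-box, the CACGTG motif that MYC and related factors bind. RefSeq start windows (build GRCm38.p6, 250 bases before to 50 after a transcript's start) were at hand for 7 of the 10 genes, in 10 windows. The Ccnd1, Ccnd2 and Rb1 windows are not shown. The Cdk4 window (chr10:127063285-127063584, + strand) holds 4 E-boxes, in capitals, that begin 172, 118, 98 and 11 bases before the start.
Cdk4: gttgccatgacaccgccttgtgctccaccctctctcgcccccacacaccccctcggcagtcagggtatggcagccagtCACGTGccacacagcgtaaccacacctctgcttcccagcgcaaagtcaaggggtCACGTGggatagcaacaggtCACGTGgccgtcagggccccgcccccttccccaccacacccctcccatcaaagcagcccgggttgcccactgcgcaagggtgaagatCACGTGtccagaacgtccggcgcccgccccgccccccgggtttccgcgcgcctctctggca
Of 32851 windows of the same length, 7.15% hold at least 1 CACGTG and 0.0244% hold 4 or more. Single E-boxes also lie in the Cdk6 window and in 1 of 2 Cdkn2c windows.

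Of the 4 inhibitor genes, Cdkn2b was the one whose high switching values lay above both low switching values. Cdkn2b 1449152_at, the probe set of p15, read 7.81 in H23 and 8.08 in H27, against 7.48 in L25 and 7.49 in L27 (log2 intensity). The low switching subclones lay close together, and H27 was the highest. The log2 difference was 0.47 ± 0.13 (SE, 95% interval 0.15 to 0.78), or 1.38-fold, and it did not pass (limma adjusted p = 0.122). It passed when the median of the neighbouring genes was subtracted (0.78, adjusted p = 0.0177). Those neighbours had a median log2 difference of -0.33. Calls were more frequent throughout in that setting, with 1485 probe sets called higher and 1275 lower, against 674 and 944 without the subtraction.

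The Cdkn2a gene lies next to Cdkn2b on chromosome 4, and its single probe set did not follow it. Cdkn2a 1450140_a_at read 9.23 and 8.89 in H23 and H27, against 8.91 and 9.32 in L25 and L27, with H23 and L27 high and H27 and L25 low. The classes overlapped, and the log2 difference was -0.05 (95% interval -0.50 to 0.40). Cdkn2a encodes p16 and, from a separate upstream start in another reading frame, p19ARF, which restrains MDM2. The name of this probe set ends in _a_at, which marks probes that match alternative transcripts of a gene, so the 2 products were not measured apart.

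The start windows of these neighbours are shown to set their different control regions side by side, all on chromosome 4 and the - strand (GRCm38.p6). Capitals mark a TTTCCCGC motif of the E2F type, 99 bases before the upstream Cdkn2a start (chr4:89294570-89294869), and a TGACGTCA motif, the cAMP response element, 46 bases before the Cdkn2b start (chr4:89310983-89311282). The downstream Cdkn2a window (chr4:89282143-89282442) held none of the motifs searched.
Cdkn2a upstream start: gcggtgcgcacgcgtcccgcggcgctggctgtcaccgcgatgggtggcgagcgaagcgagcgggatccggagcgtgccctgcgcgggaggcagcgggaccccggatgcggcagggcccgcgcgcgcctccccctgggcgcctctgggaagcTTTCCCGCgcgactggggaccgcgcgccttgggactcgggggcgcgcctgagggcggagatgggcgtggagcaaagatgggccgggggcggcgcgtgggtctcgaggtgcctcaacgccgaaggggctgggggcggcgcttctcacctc
Cdkn2a downstream start: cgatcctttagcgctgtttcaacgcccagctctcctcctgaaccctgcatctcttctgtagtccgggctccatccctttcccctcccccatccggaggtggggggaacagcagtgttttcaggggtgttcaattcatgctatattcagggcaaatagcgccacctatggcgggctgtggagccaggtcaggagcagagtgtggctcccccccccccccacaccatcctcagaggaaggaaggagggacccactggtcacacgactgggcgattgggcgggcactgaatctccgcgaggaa
Cdkn2b: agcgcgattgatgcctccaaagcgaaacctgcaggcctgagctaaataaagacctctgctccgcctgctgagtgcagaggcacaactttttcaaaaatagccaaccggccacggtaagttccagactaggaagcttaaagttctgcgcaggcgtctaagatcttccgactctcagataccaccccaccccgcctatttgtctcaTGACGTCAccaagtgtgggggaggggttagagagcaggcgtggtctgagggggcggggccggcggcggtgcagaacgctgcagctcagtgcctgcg
Motifs were searched on both strands as TTTCGCGC, TTTGGCGC and TTTCCCGC for E2F, CACGTG, TGACGTCA and GTAAACA for FOXO factors. Of all windows, 1.84% hold an E2F motif, 1.79% hold TGACGTCA and 3.65% hold GTAAACA, which was found in 1 of 2 Ccnd3 windows. The Cdkn1b window held none of them.

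The remaining inhibitors did not pass the test. Cdkn2c 1416868_at, for p18, read 9.26 and 9.18 in H23 and H27, against 9.27 and 9.53 in L25 and L27, with a log2 difference of -0.18 (95% interval -0.50 to 0.14, adjusted p = 0.547). H23 and L25 read nearly the same, and L27 was the highest.
Cdkn1b 1434045_at, for p27, was bright in all subclones, at 12.12 and 12.37 in H23 and H27, against 12.31 and 12.49 in L25 and L27. Its log2 difference was -0.15 (95% interval -0.48 to 0.18). The dimmer Cdkn1b probe set 1419497_at overlapped between classes too, at 6.55 and 7.19 against 7.69 and 6.91, with L25 the highest as in Ccnd1.

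The retinoblastoma gene gave opposite readings on its 2 probe sets. Rb1 1417850_at read 11.04 in H23 and 11.56 in H27, against 9.81 in L25 and 10.28 in L27 (log2 intensity). The classes did not overlap, and within them H27 exceeded H23 by 0.52 and L27 exceeded L25 by 0.47. The log2 difference was 1.26 ± 0.23 (SE, 95% interval 0.71 to 1.81), or 2.39-fold, and passed (limma adjusted p = 0.0431).
Rb1 1444400_at read 4.65 and 4.91 in H23 and H27, against 5.34 and 5.42 in L25 and L27. It was below the median probe set on both high switching arrays and close to it on the low switching ones, and its log2 difference was -0.60 ± 0.13 (SE, adjusted p = 0.0679), which was called lower after cyclic loess (-0.64, 0.0493). The mean of the 2 probe sets had a difference of 0.33 and did not pass (adjusted p = 0.319). A higher Rb1 level in high switching subclones is thus shown by the brighter probe set and not by the dimmer one, and the files do not say which part of the transcript each one reads.

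The Rb1 call was lost on leaving out any 1 of the 4 arrays, with log2 differences from 1.00 to 1.52 and adjusted p-values from 0.0526 without H23 to 0.177 without L25. The Rb1 call also ended with a block for the hybridization controls (0.156) and against a minimum fold of 1.5 (0.822). Most calls over all probe sets ended in these 2 settings as well.

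**Figure D3:**
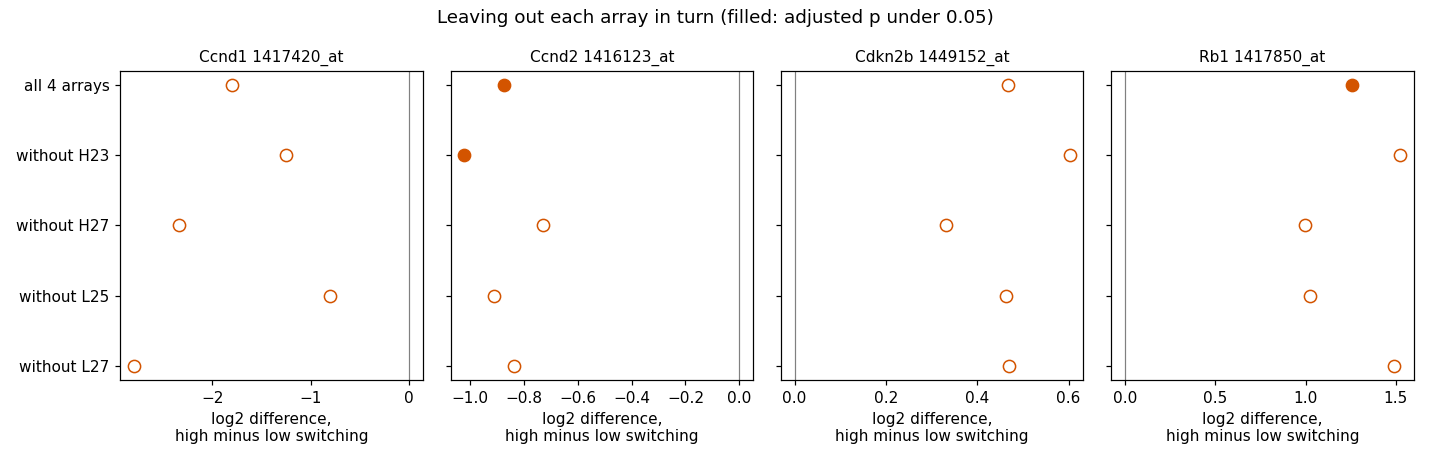
Log2 difference (high minus low switching) of 4 probe sets with all arrays and with each array left out, with filled points past the adjusted threshold. Each panel has its own horizontal scale; Ccnd1 moves from -0.80 without L25 to -2.79 without L27, and all 4 probe sets keep their direction.

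Chromosomal position gave the genes different surroundings. Rb1 lies on chromosome 14 among genes with a median log2 difference of 0.28 (31 of 40 neighbours above 0). With the neighbours' median on each array subtracted, its probe sets were called in opposite directions: 1417850_at higher (1.04, adjusted p = 0.0234) and 1444400_at lower (-0.82, 0.0191). Calls over all probe sets rose in that setting too, as given for Cdkn2b. Ccnd2 and Cdkn1b both lie on chromosome 6, where 395 genes at or above a mean of 7 had a median log2 difference of 0.20, but their neighbours had medians of -0.23 and -0.24. With the neighbours subtracted, the differences of the 7 Ccnd2 probe sets shrank to between -0.57 and 0.00 and that of Cdkn1b 1434045_at was 0.03. Around Ccnd1 on chromosome 7 and Cdk6 on chromosome 5 the neighbours' medians were -0.38 and -0.36, each over 20 genes to the same side.
For Cdk4 on chromosome 10 the neighbours' median was 0.04, and for Ccnd3 on chromosome 17 it was -0.19, close to the gene's own -0.17. The share of these differences that comes with the surrounding stretch of chromosome was not tested.

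**Figure D4:**
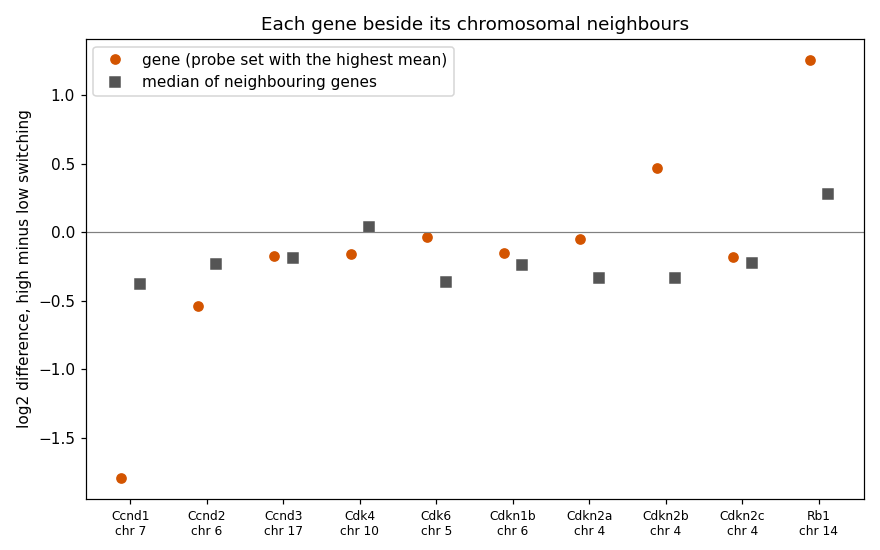
Log2 difference (high minus low switching) of the brightest probe set of each gene (orange circles) and the median over up to 40 neighbouring genes on the same chromosome (grey squares). Rb1 and Ccnd1 lie far from their neighbours, and Cdkn2b lies on the other side of 0 from its neighbours.

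The surrounding genes of cell cycle entry were counted in 5 lists, with the brightest probe set standing for each of 38 measured genes. Of these, 2 were called higher and 1 lower in high switching subclones, where 4.82% of all genes were called in either direction. The median log2 difference over the 38 genes was -0.05, with 18 above and 20 below 0, against 0.01 over all 18193 genes.

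Of the 3 other inhibitors, Cdkn1a rose. Cdkn1a 1424638_at, which measures the p53 target p21, read 8.70 and 8.03 in H23 and H27, against 6.60 and 6.93 in L25 and L27, with a log2 difference of 1.60 ± 0.24 (SE, adjusted p = 0.0278). The second Cdkn1a probe set, 1421679_a_at, passed with all arrays (0.92, adjusted p = 0.0145). Cdkn2d, the INK4 member p19, had a difference of 0.79 that did not pass (adjusted p = 0.0754), and Cdkn1c had -0.27. The Cdkn1a call on 1424638_at held without H27 (adjusted p = 0.0181) and ended without each of the other arrays, and that on 1421679_a_at was lost on leaving out any 1 of the 4 (adjusted p-values from 0.0555 to 0.0803). With a block for the hybridization controls, all 11 called probe sets of Cdkn1a, Rbl2, E2f5 and Skp2 lost their calls (adjusted p-values from 0.0600 to 0.116). Most calls over all probe sets were lost with it too, as given for Ccnd2, so this loss is not particular to these genes.

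Of the 12 pocket proteins and E2F genes, Rbl2 rose and 11 did not pass on their brightest probe set. Rbl2 encodes p130, the relative of the retinoblastoma protein that is abundant in resting cells, and 1425981_a_at read 9.29 and 9.33 in H23 and H27, against 8.53 and 8.71 in L25 and L27. Its log2 difference was 0.69 ± 0.11 (SE, adjusted p = 0.0367), both Rbl2 probe sets passed, and both calls were lost on leaving out any 1 of the 4 arrays or on subtracting the neighbours' median (0.44, adjusted p = 0.114, on 1425981_a_at). Rbl1, for the relative p107, had a difference of -0.64 in the other direction that did not pass (adjusted p = 0.0571).
E2f5, an E2F that works with p130 as a repressor, passed on 2 of 3 probe sets. Its 1417444_at read 7.27 and 7.41 in H23 and H27, against 5.59 and 5.99 in L25 and L27, a 2.93-fold difference (adjusted p = 0.0111) that held without each array in turn (adjusted p-values from 0.0168 to 0.0444). The other called E2f5 probe set, 1460207_s_at (1.21, adjusted p = 0.0153), lost its call without H27 (0.0554) and without L25 (0.0782). Its brightest probe set overlapped between classes (0.39, adjusted p = 0.358). The activators E2f1, E2f2 and E2f3 had differences of -0.42, -0.18 and -0.34, and the atypical E2f7 and E2f8 had -0.81 and -0.74, none of them past the threshold.

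Of the 10 genes of assembly and turnover, Skp2 fell. Skp2 is the F-box protein that marks p27 for degradation, and 1418969_at read 8.62 and 8.40 in H23 and H27, against 9.34 and 9.27 in L25 and L27 (log2 difference -0.80 ± 0.12, SE, adjusted p = 0.0304). In all, 5 of 6 Skp2 probe sets passed, with differences from -0.96 to -0.80, each with both high switching subclones below both low switching ones. The Skp2 calls ended without each of the 4 arrays, except that 1460247_a_at passed without H23 (adjusted p = 0.0479). Cdc37, a chaperone partner that helps CDK4 fold, had a difference of 0.14, and Cks1b and Skp1, which work with Skp2, had 0.11 and 0.19. The bright Cdkn1b probe set had -0.15 as given above, and the level of p27 protein was not measured. Fbxo31, an F-box protein that targets cyclin D1, had 0.70 and Ambra1, which targets D cyclins for degradation, had -0.39, neither past the threshold (adjusted p-values of 0.0608 and 0.139).

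None of the 8 cyclins and kinases of the step into S phase passed. Ccne1 and Ccne2, the E cyclins that follow the D cyclins, had log2 differences of 0.03 and 0.17, their kinase Cdk2 had -0.35 and Ccna2 had 0.41. None of the 5 genes listed as regulators of the Cdkn2a locus passed either. Bmi1, a Polycomb repressor of the locus, had a difference of -0.17, Ezh2 had 0.46, Cbx7 0.07 and Cbx8 -0.29. Mdm2, in this list although its protein is a target of p19ARF and not a regulator of the locus, had -0.07.

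**Figure D5:**
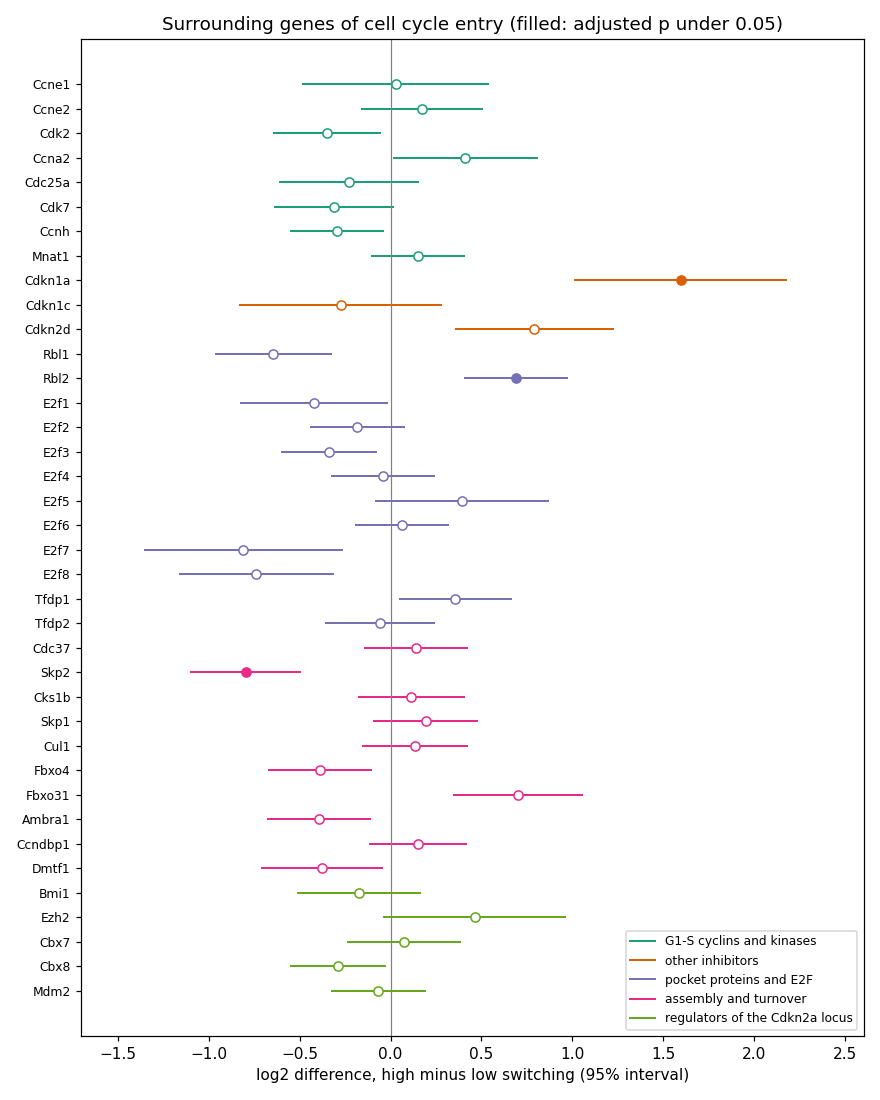
Log2 difference (high minus low switching) with its 95% interval for 38 surrounding genes, coloured by list, with filled points past the adjusted threshold. Cdkn1a and Rbl2 lie to the right and Skp2 to the left of 0.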

How the data were processed

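Biotin-labelled cRNA from 4 subclones went on 1 array each, per the labels. The deposited intensities are linear, and RMA is the method that the submitters' processing notes name, with no version. They were turned into log2 values. Of 45101 probe sets, 45037 entered the fit without a filter, and the 64 control probe sets did not. The platform annotation gives 34945 of them 1 symbol, 932 several and 9160 none. A GRCm38.p6 gene table set the order of genes, and no genome build of the authors was used.

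High minus low switching was fitted for all probe sets with limma 3.58.1 in R 4.3.3 (lmFit, eBayes, two-sided, Benjamini-Hochberg, threshold 0.05), and the script was tested on simulated data. The SE is the moderated one. Figures used matplotlib 3.10.9 in Python 3.11.15. Neighbours were up to 20 genes on each side, each averaging 7 or more in log2 intensity. Ccnd1 and Cdk6 had 20 in all, to the same side, since no such gene lay beyond them on the chromosome. Where neighbours were subtracted, their median was taken on each array, so the shift need not equal the median of their log2 differences. Replicates 1 and 2 are H23 and H27 in the high and L25 and L27 in the low switching class. No label says that subclones of a class arose separately, and the p-values cover the spread among these 4 alone. Named were all members, each listed gene with a probe set past the threshold, and up to 4 others of a list in its written order. Beyond that rule, E2f7, E2f8, Fbxo31, Ambra1 and Mdm2 were chosen after their values were seen. The members and lists were chosen with earlier results of these data known.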

Additional observations from a re-analysis of the deposited data

How the results depend on the processing

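Of 531 comparisons of a single probe set with an alternative, 424 kept direction and side of the threshold, 74 lost a call, 17 gained one and 16 changed sign. None of the 16 was called. The comparisons covered the 26 probe sets of the members and the probe sets of Cdkn1a, Rbl2, E2f5 and Skp2 that were picked because they were called. Of the 26, 24 had no call to lose, so keeping their side mostly meant staying uncalled. Ccnd2 1416123_at and Rb1 1417850_at each lost their call in 6 settings, and the other losses were among the picked probe sets. Subtracting the median of neighbouring genes turned Ccnd3 1415907_at to 0.0154 and 1438805_at to 0.0741, Cdk6 1455287_at to 0.249, 1460291_at to 0.284 and 1435338_at to 0.141, Cdkn1b 1434045_at to 0.0324, Cdkn2a to 0.261 and Cdkn2c to 0.120, and quantile normalization turned Cdkn2a to 0.0027. Leaving out 1 array in turn gave ranges that cross 0 for Ccnd3 1415907_at (-0.404 to 0.0551) and 1444323_at (-0.0237 to 0.113), Cdk6 1455287_at (-0.0727 to 0.00215) and 1460291_at (-0.111 to 0.111), and Cdkn2a (-0.257 to 0.153). The cause was not tested.

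Of the 10 genes, 6 probe sets were called lower with a variance trend, with or without robust estimation, 3 with a mean of at least 6, 2 with cyclic loess and 0 with the brightest probe set for each gene. With the mean of a gene's probe sets, 0 were called higher. Subtracting neighbours gave 2 higher. A minimum fold of 1.5 and a block for the hybridization controls gave 0 in both directions. Leaving out 1 array gave 0 higher in each case and 0 to 2 lower. Over all probe sets, a minimum fold of 1.5 left 59 higher and 104 lower, the block 58 and 94, the gene means 613 lower, and neighbours gave 1485 higher. Called lower over all probe sets were 912 with a variance trend and 951 with robust estimation added. A mean of at least 6 gave 1044 lower and cyclic loess 987. Leaving out 1 array left 112 to 253 higher and 196 to 329 lower, with fewer residual degrees of freedom by construction. Of the listed genes, 2 were lower with a mean of at least 6, above the median probe set, with the brightest probe set alone and with neighbours subtracted. Without _x_at, _s_at and _a_at probe sets 1 was higher, as with neighbours subtracted, and a minimum fold or the block gave 0 in both directions. Leaving out 1 array gave 0 to 1 higher and 0 to 1 lower. The labels pair no subclones across the classes, and the block for the hybridization controls sets H27 with L25 and H23 with L27 by the level of those controls. The block, too, leaves fewer residual degrees of freedom by construction. Cdk6, the dimmer Rb1 probe set and the dimmest Ccnd3 probe set lie near or below the median probe set, which limits what they can show.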
